A study of Oryctolagus cuniculus with 17 samples.

Results

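Superoxide dismutases, catalase, glutathione peroxidases and the mitochondrial thioredoxin were followed in the lung of preterm rabbits kept in hyperoxia or normoxia. The set was chosen by name, as 10 human gene symbols (SOD1, SOD2, SOD3, CAT, GPX1, GPX3, GPX4, PRDX3, PRDX6 and TXN2), and each symbol was represented by its entry with the highest total count. Of these 10, 6 were in the count table, out of 13827 entries in all, and all 6 passed the filter on low counts: SOD1, SOD3, CAT, GPX1, GPX3 and TXN2. SOD2, GPX4, PRDX3 and PRDX6 had no entry under this rule and were not analysed here. Apart from that total count, taken over all samples, the rule used no measured value, but the genes were chosen with earlier results of these data known.

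RNA-seq covered 17 lung homogenates of New Zealand White pups delivered by section on day 28 of gestation and fed a milk replacer in incubators. The 8 hyperoxia samples came from pups kept at 95% oxygen until postnatal day 3 (HT3, n = 3), day 5 (HT5, n = 2) or day 7 (HT7, n = 3), and the 9 normoxia samples from pups kept at 21% oxygen for the same times (NT3, NT5 and NT7, n = 3 each). All pups of both conditions were preterm, so normoxia here is the lung of a preterm pup in room air. Nothing in the labels says whether the replicates of a group came from separate litters, and p-values measure only the spread between these samples.

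Superoxide dismutases convert superoxide to hydrogen peroxide, which catalase, glutathione peroxidases and peroxiredoxins then reduce to water. Glutathione peroxidases draw on glutathione and peroxiredoxins on thioredoxin, and both are recharged with NADPH. Breathing oxygen far above room air raises the formation of superoxide in lung cells, and these enzymes are the first line of defence of the newborn lung. They work in separate places: SOD1 and GPX1 mainly in the cytosol, SOD3 and GPX3 outside the cell, CAT in peroxisomes and TXN2 in mitochondria.

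Depth was alike among the samples, from 13123731 to 18111086 counts over all loci, with TMM factors of 0.958 to 1.05. The samples carried the markers of lung: SFTPC, the surfactant protein of alveolar type 2 cells, had 4033 to 12324 CPM (counts scaled to a fixed library total) and AGER, a marker of alveolar type 1 cells, 669 to 4760 CPM. Among all markers of 12 cell classes in the table, those with samples at 0 were NPPA (11 of 17 samples), MMP8 (4 of 17) and MS4A1 (1 of 17). Markers of heart and skeletal muscle summed to 322 CPM in HT3 replicate 2 and 286 CPM in HT5 replicate 1, against 3.35 to 42.1 CPM in the other samples. These 2 libraries stand apart, and values that moved most without them are given both ways.

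On day 7, SOD3 and GPX3, the enzymes that act outside the cell, were lower in hyperoxia, and SOD1 and TXN2 were higher. SOD3 was at 0.221 times and GPX3 at 0.348 times the mean CPM of normoxia, while SOD1 was at 1.39 times and TXN2 at 1.31 times. GPX1 and CAT did not pass the test. Thus 4 of the 6 genes passed an adjusted p-value of 0.05, 2 higher and 2 lower (66.7%). Among all 13142 genes tested, 47.4% passed on that day, 23.7% higher and 23.7% lower, so nearly as many genes passed as did not. Of the 6 genes, SOD3 alone also met the study's criterion for differentially expressed genes (adjusted p-value under 0.01 and a log2 fold change, log2FC, beyond 2 in either direction), which 4.59% of all genes tested met. Changes of abundance in whole lung cannot tell fewer cells of a type from less RNA per cell.

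**Figure D1:**
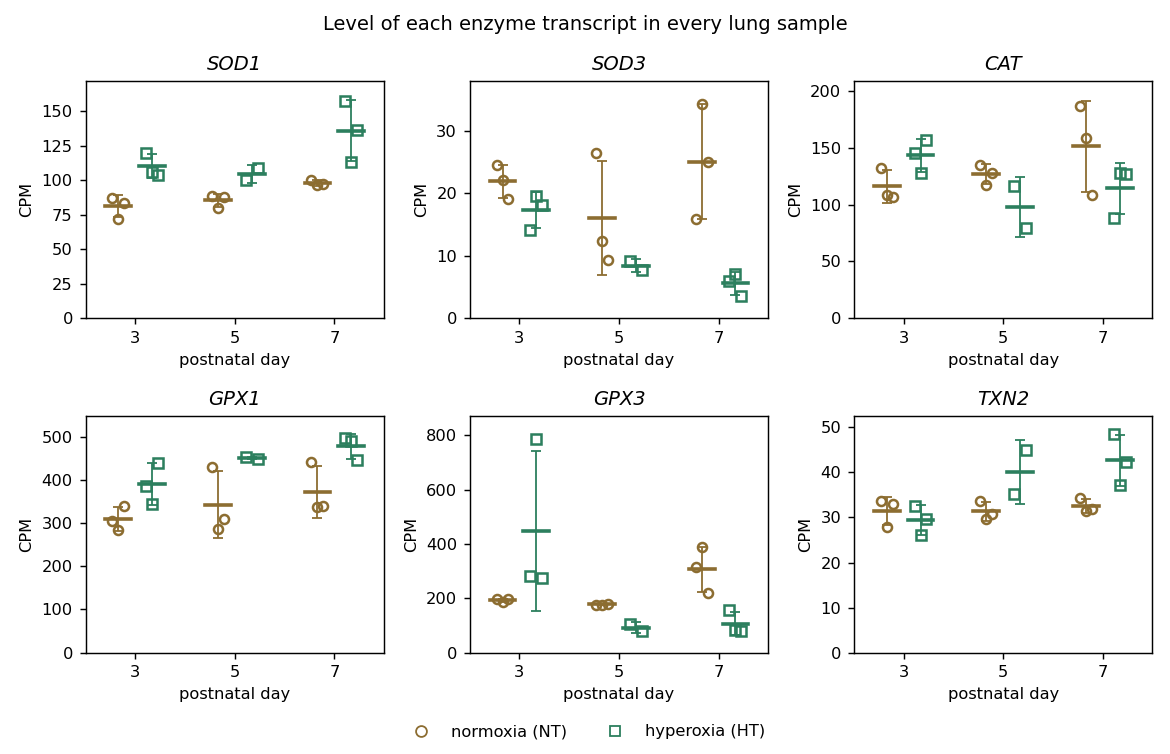
CPM (vertical axes, linear, starting at 0) of SOD1, SOD3, CAT, GPX1, GPX3 and TXN2 on postnatal days 3, 5 and 7 (horizontal axes) in normoxia and hyperoxia, with a point for each sample and a line at each group mean with bars of 1 SD. On day 7 the 3 hyperoxia samples of SOD3 sit between 3.59 and 7.14 CPM, below the normoxia samples at 15.9 to 34.3 CPM, and GPX3 in HT3 replicate 2 stands at 787 CPM.

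SOD1 is the copper and zinc superoxide dismutase of the cytosol. Its entry (ENSOCUG00000024552) lies at chr14:161796117-161803826 on the plus strand of OryCun2.0, as the table lists it. In normoxia SOD1 had 87.3, 72.0 and 83.8 CPM on day 3, 88.3, 79.9 and 87.8 CPM on day 5, and 100.3, 96.7 and 97.0 CPM on day 7. In hyperoxia it had 120.1, 106.3 and 103.8 CPM on day 3, 100.1 and 109.1 CPM on day 5, and 157.6, 113.3 and 136.5 CPM on day 7. Every hyperoxia sample was above every normoxia sample of its day on all 3 days. So it was for 12.8% of all genes on day 3, 26.5% on day 5 and 27.3% on day 7. The day 7 means were 98.0 ± 2.01 CPM (SD, n = 3) in NT7 and 135.8 ± 22.2 CPM (SD, n = 3) in HT7, with a log2FC of 0.47 (SE 0.12, adjusted p = 0.00397). The differences of day 3 (log2FC = 0.44, SE 0.12, adjusted p = 0.0902) and day 5 (log2FC = 0.29, SE 0.13, adjusted p = 0.0948) did not pass, although the day 3 value was close to that of day 7, and with DESeq2 the day 3 adjusted p was 0.0224.

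SOD3 is the extracellular superoxide dismutase, a secreted copper and zinc enzyme that binds to heparan sulfate of the matrix and is abundant in lung and blood vessels. Its entry (ENSOCUG00000007460) lies at chr2:15385375-15407874 on the plus strand. In normoxia it had 24.5, 22.2 and 19.1 CPM on day 3, 26.5, 12.4 and 9.30 CPM on day 5, and 15.9, 34.3 and 25.0 CPM on day 7. In hyperoxia it had 14.1, 19.6 and 18.1 CPM on day 3, 9.14 and 7.68 CPM on day 5, and 5.94, 7.14 and 3.59 CPM on day 7. The groups overlapped on day 3, stood just apart on day 5 and were far apart on day 7. Hyperoxia lay wholly below normoxia in 29.2% of all genes on day 5 and 27.2% on day 7.

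The day 7 means of SOD3 were 25.1 ± 9.24 CPM (SD, n = 3) in NT7 and 5.55 ± 1.81 CPM (SD, n = 3) in HT7, with a log2FC of -2.18 (SE 0.37, adjusted p = 0.000275). On day 3 the log2FC was -0.34 (SE 0.35, adjusted p = 0.695), or -0.22 (adjusted p = 0.870) without HT3 replicate 1, and on day 5 it was -0.93 (SE 0.41, adjusted p = 0.0950). The day 5 value of SOD3 depended on 1 normoxia sample: without NT5 replicate 1, at 26.5 CPM, the log2FC was -0.37 (adjusted p = 0.441), and without NT5 replicate 3 it was -1.21 (adjusted p = 0.0405). The fall on day 7 passed with every sample left out in turn, with a log2FC between -2.42 and -1.88.

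CAT encodes catalase, the haem enzyme of peroxisomes. Its entry (ENSOCUG00000014198) lies at chr1:173711512-173762873 on the plus strand. In normoxia CAT had 132.9, 109.0 and 107.0 CPM on day 3, 135.2, 117.6 and 128.2 CPM on day 5, and 187.3, 158.7 and 108.5 CPM on day 7. In hyperoxia it had 145.3, 128.3 and 157.4 CPM on day 3, 116.8 and 79.6 CPM on day 5, and 88.4, 127.9 and 127.1 CPM on day 7. The 2 conditions overlapped on days 3 and 7. On day 3 hyperoxia was higher in each of the 3 same-numbered pairs, as it was for 22.3% of all genes. CAT passed on no day: its log2FC was 0.31 (SE 0.20, adjusted p = 0.485) on day 3, -0.37 (SE 0.22, adjusted p = 0.216) on day 5 and -0.40 (SE 0.20, adjusted p = 0.106) on day 7. The NT7 samples were spread over 151 ± 39.9 CPM (SD, n = 3), and the day 7 log2FC moved with single samples. It was -0.60 (adjusted p = 0.0195) without NT7 replicate 3, the lowest of them, -0.22 (adjusted p = 0.401) without NT7 replicate 1 and -0.25 (adjusted p = 0.356) without HT7 replicate 1. The day 5 value was -0.67 (adjusted p = 0.0730) without HT5 replicate 1 and -0.14 (adjusted p = 0.782) without HT5 replicate 2.

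GPX1 is the selenium-containing glutathione peroxidase of the cytosol. Its entry (ENSOCUG00000005938) lies at chr9:16889533-16890546 on the minus strand. In normoxia GPX1 had 305.8, 284.9 and 339.1 CPM on day 3, 430.8, 286.4 and 309.2 CPM on day 5, and 442.4, 337.2 and 338.6 CPM on day 7. In hyperoxia it had 386.6, 343.2 and 440.3 CPM on day 3, 452.5 and 448.7 CPM on day 5, and 497.9, 489.5 and 445.2 CPM on day 7. Every hyperoxia sample was above every normoxia sample of its day, but on each day by a small margin over the highest normoxia sample. Such a separation held for 12.8%, 26.5% and 27.3% of all genes on days 3, 5 and 7. The log2FC was 0.33 (SE 0.15, adjusted p = 0.314) on day 3, 0.40 (SE 0.17, adjusted p = 0.0845) on day 5 and 0.36 (SE 0.15, adjusted p = 0.0659) on day 7, none of which passed. Without the high normoxia sample of the day, GPX1 passed on day 5 (log2FC = 0.60, adjusted p = 0.0107, without NT5 replicate 1) and on day 7 (log2FC = 0.50, adjusted p = 0.0218, without NT7 replicate 1).

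A second entry carries the symbol GPX1 (ENSOCUG00000013331, chrX:61956423-61957025, plus strand) and held 1962 counts in all, against 112146 for the entry on chromosome 9. It had 2.2 to 6.1 CPM in 16 samples and 56.4 CPM in HT5 replicate 1, where it took 11.1% of the counts of both entries, against 0.727% to 1.27% elsewhere. How reads were shared between similar copies is not given in the sources used here, so the split between these 2 entries is uncertain. With both entries summed, an alternative added after seeing the data, the day 5 log2FC of GPX1 was 0.48 (adjusted p = 0.0448), and without HT5 replicate 1 it was 0.39 (adjusted p = 0.178).

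GPX3 is the secreted, selenium-containing glutathione peroxidase of plasma and extracellular fluid. Its entry (ENSOCUG00000037867) lies at chr3:32604587-32612826 on the plus strand. In normoxia GPX3 had 197.8, 187.2 and 196.0 CPM on day 3, 177.2, 175.6 and 180.4 CPM on day 5, and 313.6, 387.4 and 220.0 CPM on day 7. In hyperoxia it had 283.1, 787.3 and 273.7 CPM on day 3, 105.7 and 79.3 CPM on day 5, and 156.9, 82.5 and 80.9 CPM on day 7. The hyperoxia samples thus lay above all normoxia samples on day 3 and below all of them on days 5 and 7. Of all genes, 12.8% lay above in this way on day 3, and 29.2% and 27.2% below on days 5 and 7.

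The day 7 means of GPX3 were 307 ± 83.9 CPM (SD, n = 3) in NT7 and 107 ± 43.4 CPM (SD, n = 3) in HT7, with a log2FC of -1.52 (SE 0.36, adjusted p = 0.00302). On day 5 the log2FC was -0.94 (SE 0.41, adjusted p = 0.0899), and with the 5 samples of day 5 alone the adjusted p was 0.0198. On day 3 the means were 194 ± 5.65 CPM (SD, n = 3) and 448 ± 294 CPM (SD, n = 3), and the log2FC of 1.21 (SE 0.36, adjusted p = 0.121) did not pass. It was 0.52 (SE 0.26, adjusted p = 0.434) without HT3 replicate 2. That sample also had the 322 CPM of heart and skeletal muscle markers, while HT5 replicate 1, with 286 CPM of them, had 105.7 CPM of GPX3; the part of these markers in the result was not tested.

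TXN2 is the thioredoxin of mitochondria, which recharges the peroxiredoxins there. Its entry (ENSOCUG00000033822) lies at chr4:85325872-85336727 on the plus strand. In normoxia TXN2 had 33.6, 27.9 and 32.9 CPM on day 3, 33.7, 29.7 and 30.7 CPM on day 5, and 34.2, 31.4 and 31.8 CPM on day 7. In hyperoxia it had 32.6, 26.1 and 29.7 CPM on day 3, 35.1 and 45.1 CPM on day 5, and 48.5, 37.3 and 42.4 CPM on day 7. The groups overlapped on day 3 and did not on days 5 and 7. Hyperoxia lay wholly above normoxia in 26.5% of all genes on day 5 and 27.3% on day 7. The day 7 means were 32.5 ± 1.52 CPM (SD, n = 3) and 42.7 ± 5.64 CPM (SD, n = 3), with a log2FC of 0.39 (SE 0.13, adjusted p = 0.0240). The log2FC was -0.10 (SE 0.13, adjusted p = 0.787) on day 3, or -0.01 (adjusted p = 0.978) without HT3 replicate 2, and 0.36 (SE 0.15, adjusted p = 0.0782) on day 5. That of day 5 was 0.52 (adjusted p = 0.0308) without HT5 replicate 1 and 0.15 (adjusted p = 0.624) without HT5 replicate 2. The day 7 call of TXN2 was lost without HT7 replicate 1 (log2FC = 0.29, adjusted p = 0.110). It was also lost without NT7 replicate 2 (log2FC = 0.37, adjusted p = 0.0730) and without NT7 replicate 3 (log2FC = 0.38, adjusted p = 0.0662), with a log2FC close to the 0.39 of all samples.

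**Figure D2:**
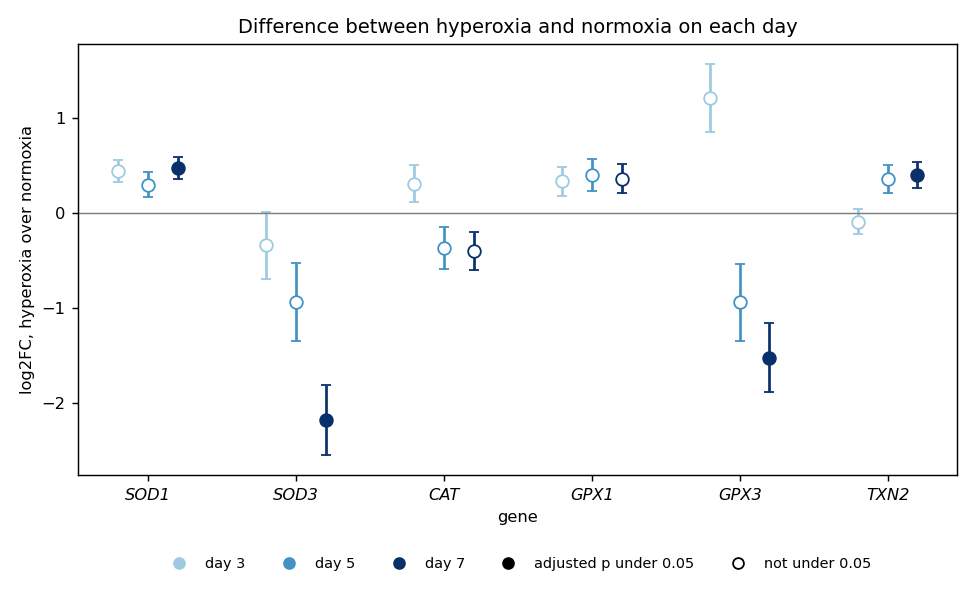
log2FC of hyperoxia over normoxia (vertical axis) for each gene (horizontal axis) on days 3, 5 and 7, with bars of 1 SE from the edgeR fit and filled points where the adjusted p-value is under 0.05. The filled points are those of SOD1, SOD3, GPX3 and TXN2 on day 7, with SOD3 lowest at -2.18, and GPX3 moves from 1.21 on day 3 to -1.52 on day 7.

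On day 3 none of the 6 genes passed with edgeR, where 1.03% of all genes did (0.517% in each direction). At an unadjusted p-value under 0.05, 3 of the 6 were counted, against 15.3% of all genes. DESeq2 called 2, SOD1 and GPX3, against 4.20% of the genes it tested. In CPM, 3 of the 6 genes did not overlap between HT3 and NT3, all with hyperoxia above (SOD1, GPX1 and GPX3). Of all genes, 26.7% did not overlap on that day, 12.8% with hyperoxia above and 13.9% below. Between same-numbered samples, hyperoxia was higher in 3 of 3 pairs for SOD1, CAT, GPX1 and GPX3 and lower in 3 of 3 for SOD3 and TXN2, so all 6 genes had pairs of one sign. Of all genes 45.6% did, 22.3% with hyperoxia higher and 23.3% lower. With the replicate number as a block none of the 6 passed on day 3, with adjusted p-values between 0.0715 (SOD1) and 0.766 (TXN2).

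On day 5 none of the 6 passed with edgeR either, where 31.3% of all genes did (15.9% higher and 15.4% lower). At an unadjusted p-value under 0.05, 5 of the 6 were counted against 43.3% of all genes, and DESeq2 called 1, GPX3, against 34.4%. With 2 HT5 samples, all 6 genes were apart in CPM, SOD1, GPX1 and TXN2 with hyperoxia above and SOD3, CAT and GPX3 below. Of all genes, 55.7% were apart on day 5, 26.5% above and 29.2% below. On day 7, 5 of the 6 were apart, the same genes without CAT, against 54.5% of all genes (27.3% above and 27.2% below).

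SOD3 and GPX3 responded to hyperoxia differently on day 7 than on day 3. The difference of the log2FC, day 7 minus day 3, was -1.83 for SOD3 (SE 0.51, adjusted p = 0.0209) and -2.73 for GPX3 (SE 0.51, adjusted p = 0.00320). Thus 2 of the 6 genes passed (33.3%), both lower, while 20.5% of all genes did (9.52% higher and 11.0% lower). For GPX3 the difference was -2.05 (adjusted p = 0.00448) without HT3 replicate 2. For SOD3 the call was lost without HT7 replicate 3 (-1.59, adjusted p = 0.0562), NT3 replicate 3 (-1.74, adjusted p = 0.0520) or NT7 replicate 2 (-1.54, adjusted p = 0.0602). SOD1 and GPX1 had near the same log2FC on both days, with differences of 0.03 (SE 0.16, adjusted p = 0.923) and 0.03 (SE 0.21, adjusted p = 0.948). For CAT the difference was -0.71 (SE 0.28, adjusted p = 0.0846) and for TXN2 0.49 (SE 0.19, adjusted p = 0.0782).

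Within normoxia, NT7 against NT3, no gene of the 6 passed with edgeR, nor did any gene of the whole table (0%). At an unadjusted p-value under 0.05, 1 of the 6 was counted against 6.27% of all genes, and DESeq2 called none of the 6 and 39 genes in all (0.294%). The log2FC of the 6 genes between these days was between 0.05 (TXN2, SE 0.13) and 0.66 (GPX3, SE 0.35). Within hyperoxia, HT7 against HT3, 4 of the 6 passed, against 44.3% of all genes (22.3% higher and 22.0% lower). SOD3 had a log2FC of -1.64 (SE 0.37, adjusted p = 0.00242) and GPX3 of -2.07 (SE 0.37, adjusted p = 0.000456). Without HT3 replicate 2 the value of GPX3 was -1.38 (adjusted p = 0.00136). TXN2 had a log2FC of 0.54 (SE 0.13, adjusted p = 0.00470) and SOD1 of 0.30 (SE 0.12, adjusted p = 0.0452). The call of SOD1 was lost with a log2FC of about the same size with DESeq2 (0.29, adjusted p = 0.0520) and without HT3 replicate 2 (0.28, adjusted p = 0.118), HT3 replicate 3 (0.26, adjusted p = 0.129) or HT7 replicate 3 (0.31, adjusted p = 0.0863). Without HT7 replicate 1 the log2FC itself was lower, at 0.18 (adjusted p = 0.217). Both comparisons share samples with that of HT7 and NT7, NT7 in the first and HT7 in the second, and are not independent of it.

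Ordered by group mean, the genes followed different sequences. SOD1 ran from NT3 over NT5, NT7, HT5 and HT3 to HT7, and GPX1 from NT3 over NT5, NT7, HT3 and HT5 to HT7, so for both every hyperoxia group mean was above every normoxia mean. Neighbours in that order did not overlap only at NT5 and NT7 for SOD1 and at HT3 and HT5 for GPX1. SOD3 ran from HT7 over HT5, NT5, HT3 and NT3 to NT7, with gaps between HT7 and HT5 and between HT5 and NT5. GPX3 ran from HT5 over HT7, NT5, NT3 and NT7 to HT3, with gaps between HT7 and NT5, NT5 and NT3, and NT3 and NT7. TXN2 ran from HT3 over NT5, NT3, NT7 and HT5 to HT7, with a gap between NT7 and HT5 alone, and for CAT all neighbours overlapped, from HT5 at the bottom to NT7 at the top.

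Ratios of counts within a sample do not depend on its depth, but they include the transcripts' lengths, so that their change and not their height can be read. For SOD1 over SOD3 the ratio was 2.82 to 9.44 in the 9 normoxia samples, 8.53, 5.42 and 5.72 in HT3, 10.9 and 14.2 in HT5, and 26.5, 15.9 and 38.1 in HT7. All 5 samples of HT5 and HT7 were above all normoxia samples. The change came mostly from the transcript of SOD3, at 0.221 times normoxia on day 7, against 1.39 times for SOD1. For GPX1 over GPX3 the ratio was 0.871 to 2.43 in normoxia and 3.17 to 5.93 in HT5 and HT7, again without overlap. In HT3 it was 1.37, 0.436 and 1.61, inside or below the normoxia range. GPX1 over CAT was 2.12 to 3.19 in normoxia, 2.66, 2.67 and 2.80 in HT3, inside that range, and 3.50 to 5.63 in HT5 and HT7. No test was run on these ratios. They are formed from the same counts as the comparisons of single genes above and add no separate evidence.

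**Figure D3:**
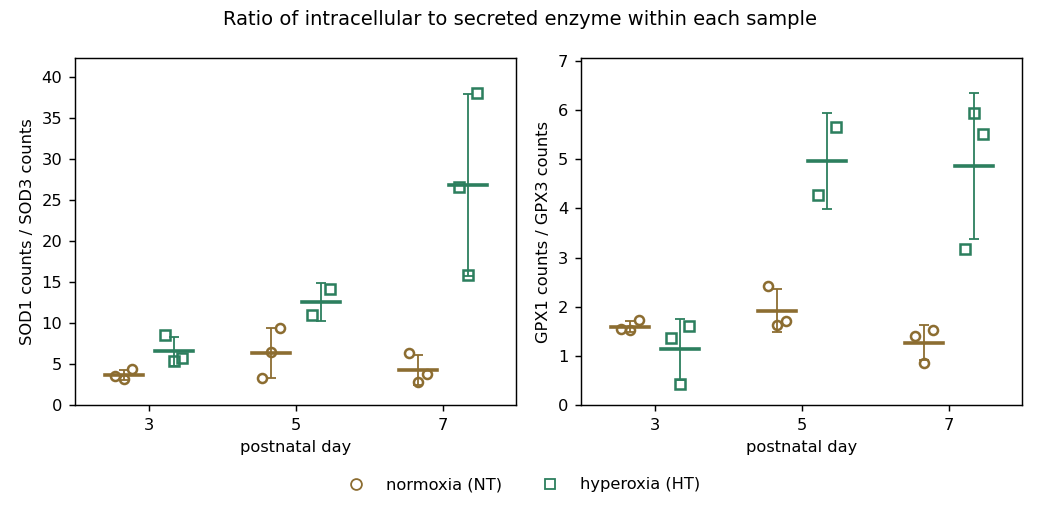
Ratio of counts within each sample (vertical axes, linear, starting at 0) for SOD1 over SOD3 and GPX1 over GPX3, by postnatal day (horizontal axes), in normoxia and hyperoxia, with a point for each sample and a line at each group mean with bars of 1 SD. In HT5 and HT7 the ratio of SOD1 to SOD3 is 10.9 to 38.1, above the 2.82 to 9.44 of all normoxia samples.

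Marker genes of other cells moved over the same samples. On day 7, endothelial markers summed to 2245 to 2625 CPM in NT7 and 899 to 1259 in HT7 (5 of 7 lower), and they were at 1230 to 1318 in HT5 against 2071 to 2586 in NT5. Alveolar type 1 markers summed to 6756 to 7606 CPM in NT7 and 1984 to 2635 in HT7 (4 of 6 lower), and to 2312 to 3956 in HT5 against 5903 to 7074 in NT5. Erythroid markers (128 to 226 CPM in NT7 and 52.5 to 73.0 in HT7, 4 of 5 lower) and lymphocyte markers (9.09 to 15.9 against 2.97 to 4.33, 5 of 7 lower) were lower as well. Macrophage markers were at 1125 to 1329 CPM in NT7 and 1870 to 2438 in HT7 (3 of 8 higher, 1 lower), and club cell markers at 132 to 194 against 191 to 264 (1 of 3 higher, 1 lower). Of these classes only club cells overlapped, while the sums of the next 5 classes all did. Neutrophil markers were at 1061 to 1152 CPM in NT7 and 1047 to 3457 in HT7 (1 of 5 tested higher), and alveolar type 2 markers at 17582 to 23604 against 13746 to 29994 (1 of 9 higher, 2 lower). Fibroblast markers were at 7652 to 9962 against 7246 to 8183 (2 of 7 higher, 2 lower), smooth muscle markers at 751 to 960 against 538 to 827 (1 of 6 higher, 2 lower) and ciliated cell markers at 105 to 132 against 87.8 to 112 (1 of 6 lower), and no muscle marker of 5 tested passed on day 7. On day 5, erythroid, smooth muscle, fibroblast, ciliated and club cell sums also lay below those of NT5 without overlap, and macrophage and neutrophil sums above. The macrophage sums rest mainly on CD68, at 577 to 1999 CPM over all samples. On day 7 only 4 of the 8 macrophage markers had a log2FC above 0, with a median of 0.0072. SOD3 and GPX3 were lowest in the 5 samples of HT5 and HT7, which had the lowest endothelial, alveolar type 1 and erythroid sums and the highest macrophage sums of all samples, and the part of these cell markers in the falls of SOD3 and GPX3 was not tested. Their part in the higher values of SOD1 and TXN2 was not tested either.

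Marker sums were also apart on day 3, when SOD1, GPX1 and GPX3 lay above normoxia. Alveolar type 2 markers summed to 25089 to 28367 CPM in HT3 and 17774 to 20673 in NT3, and neutrophil markers to 1138 to 1674 against 295 to 795 CPM. Fibroblast markers were on the other side, at 7016 to 8512 CPM in HT3 and 9447 to 11653 in NT3, as were smooth muscle markers, at 821 to 910 against 960 to 1105 CPM, and lymphocyte markers, at 3.66 to 4.26 against 4.37 to 8.65 CPM. No single marker of these 5 lists passed on day 3 with edgeR. TIE1, an endothelial receptor, was the one marker that passed that day (log2FC = -0.87, SE 0.12, adjusted p = 0.00316), while the endothelial sums overlapped. The part of these markers in the day 3 values of the enzymes was not tested.

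The other genes of superoxide and peroxide handling were taken from 8 lists with 93 genes, of which 75 were in the table and 74 were tested. The lists were chosen with earlier results of these data known, so their shares are a description. On day 3, 3 of the 74 were higher and none lower with edgeR (4.05%), against 1.03% of all genes. With DESeq2, 8 were higher and 0 lower on day 3, where 4.20% of the genes it tested passed. On day 5, 13 were higher and 4 lower (23%), against 31.3%, and on day 7, 28 were higher and 13 lower (55.4%), against 47.4% of all genes. The median log2FC of all genes tested was within 0.02 of 0 on each day, and the lists differed widely from each other.

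Genes that supply thioredoxin and glutathione, the electron donors of the peroxidases, had the highest number of rises on each day, in the list with the most genes tested. Of 17 tested, 3 were higher on day 3, 7 on day 5 and 11 on day 7, and none was lower, with median log2FC of 0.43, 0.45 and 0.84. SRXN1, sulfiredoxin, which repairs overoxidised peroxiredoxins, had a log2FC of 2.93 on day 3 (SE 0.51, adjusted p = 0.0146), 4.24 on day 5 (SE 0.54, adjusted p = 0.000144) and 5.00 on day 7 (SE 0.53, adjusted p = 7e-06). TXNRD1, the cytosolic thioredoxin reductase, had 1.09 (SE 0.22, adjusted p = 0.0325), 2.30 (SE 0.24) and 2.83 (SE 0.23, adjusted p = 1.25e-06). GCLM, the modifier subunit of the enzyme that starts glutathione synthesis, had 1.51 (SE 0.29, adjusted p = 0.0260), 2.48 (SE 0.31) and 2.82 (SE 0.30, adjusted p = 6.89e-06). On day 7 the catalytic subunit GCLC was higher by 2.18, glutathione reductase GSR by 1.55 and glutathione synthetase GSS by 0.80 on the log2 scale. The NADPH-forming enzymes ME1 (1.33), IDH1 (1.07) and PGD (0.60) rose as well, as did GLRX3 (0.49). All 11 donor genes that passed, of 17 tested, had a log2FC above the 0.47 of SOD1, the largest rise among the 6 enzymes. Passing the test favours large changes, but the median of all 17, 0.84, was also above it. These differences between genes were not tested.

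Of the other glutathione peroxidases and peroxiredoxins, 5 were tested. On day 7 GPX2, an epithelial glutathione peroxidase, was higher (log2FC = 1.42, SE 0.35, adjusted p = 0.00394), as were PRDX1 of the cytosol (0.74, SE 0.28, adjusted p = 0.0399) and PRDX4 of the endoplasmic reticulum (0.44, SE 0.15, adjusted p = 0.0272). GPX7, also of the endoplasmic reticulum, was lower on day 5 (log2FC = -0.93, SE 0.23, adjusted p = 0.00685) and day 7 (log2FC = -0.87, SE 0.20, adjusted p = 0.00238). GPX8 passed on no day. The genes of this list that passed thus moved in both directions, like the 6 genes themselves. Among all genes tested both directions were as frequent, with 23.7% higher and 23.7% lower on day 7.

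Among 10 sources of superoxide and hydrogen peroxide, 2 were higher and 1 lower on day 7, against 23.7% of all genes tested in each direction. DUOX2, a dual oxidase of epithelia that releases hydrogen peroxide, had a log2FC of 3.16 (SE 0.68, adjusted p = 0.00153), AOX1, an aldehyde oxidase, 0.64 (SE 0.19, adjusted p = 0.0131), and NOX4, an NADPH oxidase that forms hydrogen peroxide, -0.79 (SE 0.20, adjusted p = 0.00454). On day 5 AOX1 (1.08) was higher and NOX4 (-0.81) lower. Of 4 haem peroxidases tested, MPO, the peroxidase of neutrophil granules, and PXDN, peroxidasin of the matrix, were lower on day 7, with log2FC of -2.19 (SE 0.82, adjusted p = 0.0402) and -1.08 (SE 0.20, adjusted p = 0.000589).

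SOD1 and SOD3 need copper, and of 7 genes of copper delivery 2 were lower and 2 higher on day 7. On that day 23.7% of all genes tested were higher and 23.7% lower, so counts of this size are common. CCS, the chaperone that loads copper into SOD1, had a log2FC of -0.47 (SE 0.14, adjusted p = 0.0143), while SOD1 itself was higher. ATOX1, the chaperone that hands copper to the secretory pathway, through which SOD3 passes, had -0.69 on day 5 (SE 0.18, adjusted p = 0.00924) and -1.07 on day 7 (SE 0.16, adjusted p = 8.38e-05). COX17 (0.78) and SLC31A2 (0.55) were higher on day 7. A link of these genes with the levels of SOD1 and SOD3 was not tested. GPX1 and GPX3 contain selenocysteine, and of 8 genes of its synthesis and of selenium transport, LRP8, a receptor for selenoprotein P (2.13), and SECISBP2 (0.35) were higher on day 7, and SCLY (-0.80) and SEPHS1 (-0.38) were lower.

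For the compartments of TXN2 and CAT, other genes were set beside them. Of 7 mitochondrial genes tested, 5 were higher on day 7 and none lower, led by the chaperones HSPA9 (2.02, SE 0.23, adjusted p = 1.02e-05) and HSPD1 (1.43, SE 0.14, adjusted p = 3.91e-06), with CLPP (0.49), VDAC2 (0.38) and TOMM20 (0.36). The log2FC of TXN2, 0.39, was close to the median of these 7, 0.38, and far below the values of the 2 chaperones. A link between TXN2 and these genes was not tested. Across all genes tested, 23.7% were higher and 23.7% lower on day 7. Of 16 peroxisome genes, 3 were higher and 5 lower on day 7, a share near that of all genes. Their median log2FC was -0.11, against -0.40 for CAT. PEX3 (0.62) and PEX5 (0.41) were among the higher ones, and HSD17B4 (-0.62), ACAA1 (-0.42), PEX2 (-0.41), PEX7 (-0.37) and PEX19 (-0.37) were lower.

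**Figure D4:**
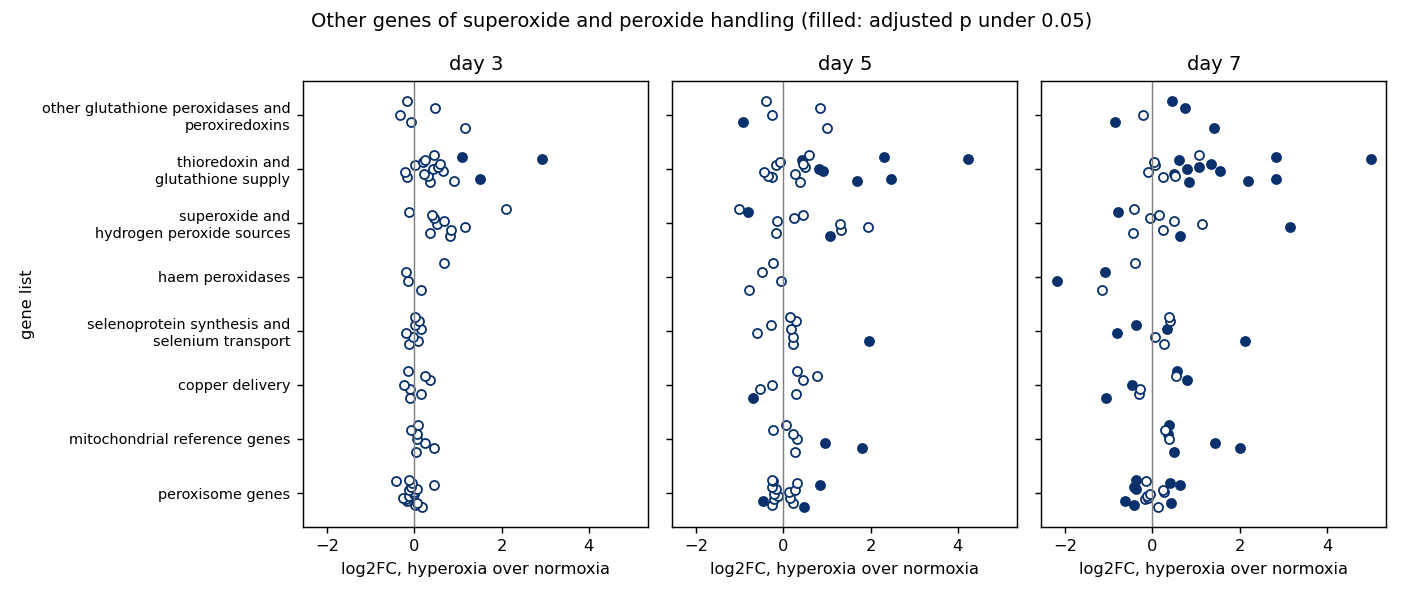
log2FC of hyperoxia over normoxia (horizontal axes) of every tested gene of the 8 lists (rows) on days 3, 5 and 7 (panels), with a point for each gene, filled where the adjusted p-value is under 0.05. Filled points of thioredoxin and glutathione supply all lie to the right of 0, up to 5.00 for SRXN1 on day 7, while those of the peroxisome list lie on both sides.

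The genes whose log2 CPM followed each of the 6 most closely over the 17 samples were found among 11365 genes, as a description, since the samples share the design. SOD1 was followed by KLHL2 (Pearson r = 0.944) and SUCLG1 (0.931), GPX1 by FGFBP1 (0.952) and FPR2 (0.939), and TXN2 by COPS7B and PTDSS1 (0.958 each). SOD3 was followed by GABBR1 (0.921) and FNDC1 (0.914), GPX3 by EPAS1 (0.946) and TACC1 (0.933), and CAT by SIRT5 (0.834) and SEC14L4 (0.798), the lowest values among the 6.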

How the data were processed

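Stranded mRNA libraries of right lung homogenate gave paired-end reads, from which the authors made the deposited raw counts per locus, not normalized and joined to Ensembl genes. The submitters' processing notes name FastQC, STAR 2.7.10a and OryCun2.0, with no role or order. The counting program and its strand setting are not given in the sources used here. The test was that of edgeR 4.0.16 (R 4.3.3): filterByExpr kept 13142 entries and left out 685, and a quasi-likelihood model of 6 group means with TMM factors was fitted to all 17 samples (prior count 0.125). Adjustment was by Benjamini-Hochberg over all entries tested, with calls under 0.05. DESeq2 1.42.0 was an alternative, beside other normalizations, filters and call rules, a replicate block and leaving out each sample. CPM used TMM factors and the totals of tested entries.

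The script was tested on simulated data. A 1.5-fold change was recovered in 7.46% of the changed genes on day 3, 19.4% on day 5 and 17.9% on day 7. For a 4-fold change it was 77.3%, 86.4% and 89.4%. A small difference that did not pass is thus not shown to be absent. The genes and gene lists were chosen with earlier results of these data known. All 6 enzymes found are named, together with list genes that passed on a day (some are counted but not reported here by name), markers near 0 or in sums, and the 2 genes most correlated with each enzyme among those averaging at least 1 log2 CPM. No exon lengths of the build were used, so levels are not compared between genes. Same-numbered samples were checked for shared deviations: the correlations were 0.166, 0.131 and 0.199 on day 3, 0.264 and 0.141 on day 5, and 0.174, 0.109 and 0.0695 on day 7. Only day 3 has 3 pairs that are each over 0.1. The reported test uses no pairing, and the replicate block, an alternative, was fitted over all days. What they stand for is not given in the sources used here. Tables and figures were made with Python 3.11.15, pandas 2.3.3, numpy 2.4.6 and matplotlib 3.10.9.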

Additional observations from a re-analysis of the deposited data

Results flagged for a closer look

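The response to hyperoxia differed between day 7 and day 3, by the test of the difference itself, in 2 of the 6 enzymes, both lower: SOD3 (-1.83 on the log2 scale) and GPX3 (-2.73). Among the tested genes of the other lists, 13 differed. The difference was positive for SRXN1 (2.07), LRP8 (2.04), TXNRD1 (1.74), HSPA9 (1.57), GCLM (1.31), GCLC (1.28), HSPD1 (1.19), GSR (0.89) and SLC31A2 (0.69). It was negative for ATOX1 (-0.97), PXDN (-0.90), PEX19 (-0.43) and SEPHS1 (-0.41). Across all genes tested 20.5% differed, so such a difference is common in these data.

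The second GPX1 entry, which the comparisons do not use, stood at 56.4 CPM in HT5 replicate 1 and at 2.2 to 6.1 CPM in the other samples. HT5 replicate 2 had 5.25 CPM of it, so the edgeR log2FC of this entry on day 5 (3.21, SE 0.62, adjusted p = 0.00184) rests on 1 library: without HT5 replicate 1, left out after seeing the data, it was 0.66 (SE 0.40, adjusted p = 0.225). HT5 replicate 1 also had 286 CPM of heart and skeletal muscle markers, and their part in the value was not tested.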

How the results depend on the processing

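Over all alternatives, 447 of 484 values of single genes kept their direction and their side of the threshold, 13 lost a call, 14 gained one and 10 changed sign. No gene changed sign between hyperoxia and normoxia on day 3, 5 or 7, and SOD1, SOD3 and GPX3 passed on day 7 in all 14 alternatives each. With DESeq2, 2 enzymes were higher on day 3, 8 genes of the other lists were higher on day 3 in place of 3, 1 enzyme (GPX3) was lower on day 5, and 1 was higher in HT7 against HT3. That last count was also 1 with RLE factors, with 1 entry per locus and at an adjusted p-value under 0.01. At that threshold 1 enzyme was higher on day 7 and 1 had a lower response on day 7 than on day 3. By the study's criterion 0 were higher and 1 was lower on day 7. With the samples of day 5 alone, 1 was lower on day 5. Stricter thresholds lower counts by construction, and the cause of the other changes was not tested.

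Leaving out each sample in turn, 0 to 1 enzymes were higher and 0 to 1 lower on day 5, and 1 to 3 higher and 2 to 3 lower on day 7. For the difference between days 7 and 3, 0 to 1 had a higher and 1 to 3 a lower response, and 1 to 2 were higher in HT7 against HT3. The changes of sign were all of this kind and near 0: the difference between days ranged from -0.0915 to 0.147 for SOD1 and from -0.0581 to 0.167 for GPX1, and NT7 against NT3 from -0.0335 to 0.0959 for TXN2 and from -0.0993 to 0.437 for SOD3. TXN2 had a difference between days of 0.58 (adjusted p = 0.0326) without HT7 replicate 2 and CAT of -0.90 (adjusted p = 0.0278) without NT7 replicate 3. Without scaling factors GPX1 passed on day 7 (0.39, adjusted p = 0.0433).

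With the replicate number as a block, GPX1 passed on day 7 (0.37, adjusted p = 0.0422), so that 3 of the enzymes were higher, and the block changed no other call of the 6 enzymes. It took the count of all genes called from 136 to 108 on day 3, from 4115 to 4189 on day 5 and from 6227 to 6295 on day 7. On day 7, as on day 3, all 6 samples correlated best with the sample of their own number, a hint from the data and not from the design. On day 7 CAT, GPX1 and TXN2 were on either side of the threshold depending on the sample left out, and with 3 samples a group these 3 are the least settled of the 6.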
